A study of Homo sapiens with 8 samples.

Results

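The aryl hydrocarbon receptor and 8 genes that work with it or respond to it were followed in CAL-27, a human head and neck squamous carcinoma cell line. The members were every array probe whose gene name in the scanner tables was AHR, ARNT, AHRR, CYP1A1, CYP1A2, CYP1B1, TIPARP, NQO1 or ALDH3A1. No probe of these genes was left out for its values, but the genes were chosen with earlier results of these data known. This gave 12 probes of 9 genes, out of 41000 probes and 30982 gene names. ARNT, AHRR and CYP1A2 had 2 probes each and the other 6 genes had 1. The series asked which genes respond to 2 inhibitors of protein kinase C, enzastaurin and Go. All cells were first kept without serum for 24 h. They then received nothing that the labels name (control, 3 arrays), enzastaurin at 10 µM (3 arrays) or Go at a dose the labels do not give (2 arrays), and were harvested after 24 h. Total RNA from each was hybridised to a single-colour array of its own. Because the dose of Go is not given, a difference between the inhibitors is a difference between these 2 treatments as applied, and not one at matched doses. The labels do not say whether replicates were separate cultures, so every p-value here reflects only how far these arrays spread, which may be technical.

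The aryl hydrocarbon receptor, AHR, is a transcription factor of the bHLH-PAS family that waits in the cytoplasm in a chaperone complex with HSP90. When it binds a flat aromatic ligand, such as dioxin, a polycyclic hydrocarbon or an indole made from tryptophan, it moves to the nucleus, pairs with ARNT and binds DNA at a short element with the core GCGTG. Its best known targets are the cytochrome P450 enzymes CYP1A1, CYP1A2 and CYP1B1, which oxidise many of the same ligands, and 2 genes whose products restrain it, AHRR and TIPARP. In keratinocytes the pathway is known for its part in the response of skin to pollutants and in barrier formation.

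RefSeq promoter windows (GRCh38.p14) were matched for 7 of the 9 members, as 10 windows of the 250 bases before a transcription start. CYP1A1 and CYP1A2 are neighbours on chromosome 15. The CYP1A1 probe and 1 of the 2 CYP1A2 probes were called in opposite directions for Go against control. The other CYP1A2 probe was above background on no array. The CYP1A2 call was lost in 3 of 18 alternative fits. TIPARP and AHRR are the restraining targets. For each of these 4 genes, 1 window is shown. Each is written 5′ to 3′ on the gene's own strand, and capitals mark GCGTG, or CACGC where the element lies on the opposite strand. The windows are CYP1A1 at chr15:74725529-74725778 on the minus strand, CYP1A2 at chr15:74748595-74748844 on the plus strand, TIPARP at chr3:156674340-156674589 on the plus strand and AHRR at chr5:321464-321713 on the plus strand.
CYP1A1: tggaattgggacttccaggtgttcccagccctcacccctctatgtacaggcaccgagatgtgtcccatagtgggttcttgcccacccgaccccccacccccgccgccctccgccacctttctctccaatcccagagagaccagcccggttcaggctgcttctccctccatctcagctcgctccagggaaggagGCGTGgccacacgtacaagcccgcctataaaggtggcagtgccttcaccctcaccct
CYP1A2: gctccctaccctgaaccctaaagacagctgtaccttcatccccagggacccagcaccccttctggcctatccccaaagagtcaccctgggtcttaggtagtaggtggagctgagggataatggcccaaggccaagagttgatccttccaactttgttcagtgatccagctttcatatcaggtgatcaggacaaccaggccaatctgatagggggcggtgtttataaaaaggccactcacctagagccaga
TIPARP: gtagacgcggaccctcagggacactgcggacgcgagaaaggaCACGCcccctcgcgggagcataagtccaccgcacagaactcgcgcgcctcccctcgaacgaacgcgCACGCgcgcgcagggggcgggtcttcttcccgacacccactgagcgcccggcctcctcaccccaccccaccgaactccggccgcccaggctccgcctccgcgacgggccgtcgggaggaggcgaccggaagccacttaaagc
AHRR: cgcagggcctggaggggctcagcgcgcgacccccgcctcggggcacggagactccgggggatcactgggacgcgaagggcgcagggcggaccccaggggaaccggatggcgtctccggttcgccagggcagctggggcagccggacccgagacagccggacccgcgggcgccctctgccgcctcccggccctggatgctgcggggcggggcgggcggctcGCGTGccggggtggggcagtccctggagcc
GCGTG, searched on both strands, was in 4 of the 10 member windows, which belonged to 3 members: AHRR, CYP1A1 and TIPARP. It was in 32.2% of the 35116 windows of this length in the RefSeq table. The CYP1A1 window held it 57 bases before the start, and the TIPARP window held it on the opposite strand at 208 and at 142 bases before the start. The longer form TNGCGTG, which contains GCGTG, was in 1 member window, that of AHRR shown, and in 4.5% of all windows. A match is a description of these letters, and the CYP1A2 window shown held no match. Bases outside these windows were not searched. The arrays measured RNA, so no value here bears on binding at these sites.

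The arrays had 45220 spots each, and 52.1% to 57.3% of probes were above background on an array, taken as a signal-to-noise score above 3. Keratinocyte markers fixed for the check of the cell type were above background on all arrays for 8 of the 8 on the array. Of the leukocyte markers, 4 of 6 (CD3E, CD14, CD68 and HLA-DRA) were above background on all 8 arrays and PTPRC was above it on none. Of the endothelial markers, 1 of 5 (VWF) was above it on all arrays and 2 (PECAM1 and TEK) on none. Of the fibroblast markers, 0 of 6 were above it on all arrays and 1 (PDGFRB) on none. The summed leukocyte marker signal, which is mostly HLA-DRA, was 759 to 959 in controls, 1839 to 2119.5 with enzastaurin and 1206 to 1312.5 with Go, and its part in the results below was not tested. The summed fibroblast signal was 86.5 to 128.5, 151.5 to 215 and 127.5 to 157.5 in the same order, the endothelial signal 142.5 to 168.5, 103.5 to 132.5 and 78.5 to 192, and the keratinocyte signal 33086 to 41030, 51355 to 69793 and 40469 to 44669. The spot coordinates fell into 2 sets: the 3 control arrays and Go array 1 (mean horizontal position 10930.1 to 10951 µm), and the 3 enzastaurin arrays and Go array 2 (10897.1 to 10904.5 µm). The labels name no slide. Control and enzastaurin arrays share no set, so for that comparison position set and treatment cannot be told apart, and for Go the value within each set is given beside the pooled one. In bulk RNA, fewer cells expressing a gene and less RNA per cell cannot be told apart.

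Of the 12 member probes, 5 were above background on all 8 arrays: those of AHR, CYP1B1, TIPARP and NQO1, and 1 of CYP1A2. Another 4 were above it on some arrays: both of ARNT (7 arrays each) and those of CYP1A1 and ALDH3A1 (4 arrays each). The remaining 3, both of AHRR and the other of CYP1A2, were above it on none. The signals quoted below are the authors' background-subtracted intensities, which are not normalised between arrays. Differences and tests use log2 intensities after quantile normalisation, and the 9 probes above background on at least 2 arrays were tested. Levels are compared between arrays and not between probes.

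**Figure D1:**
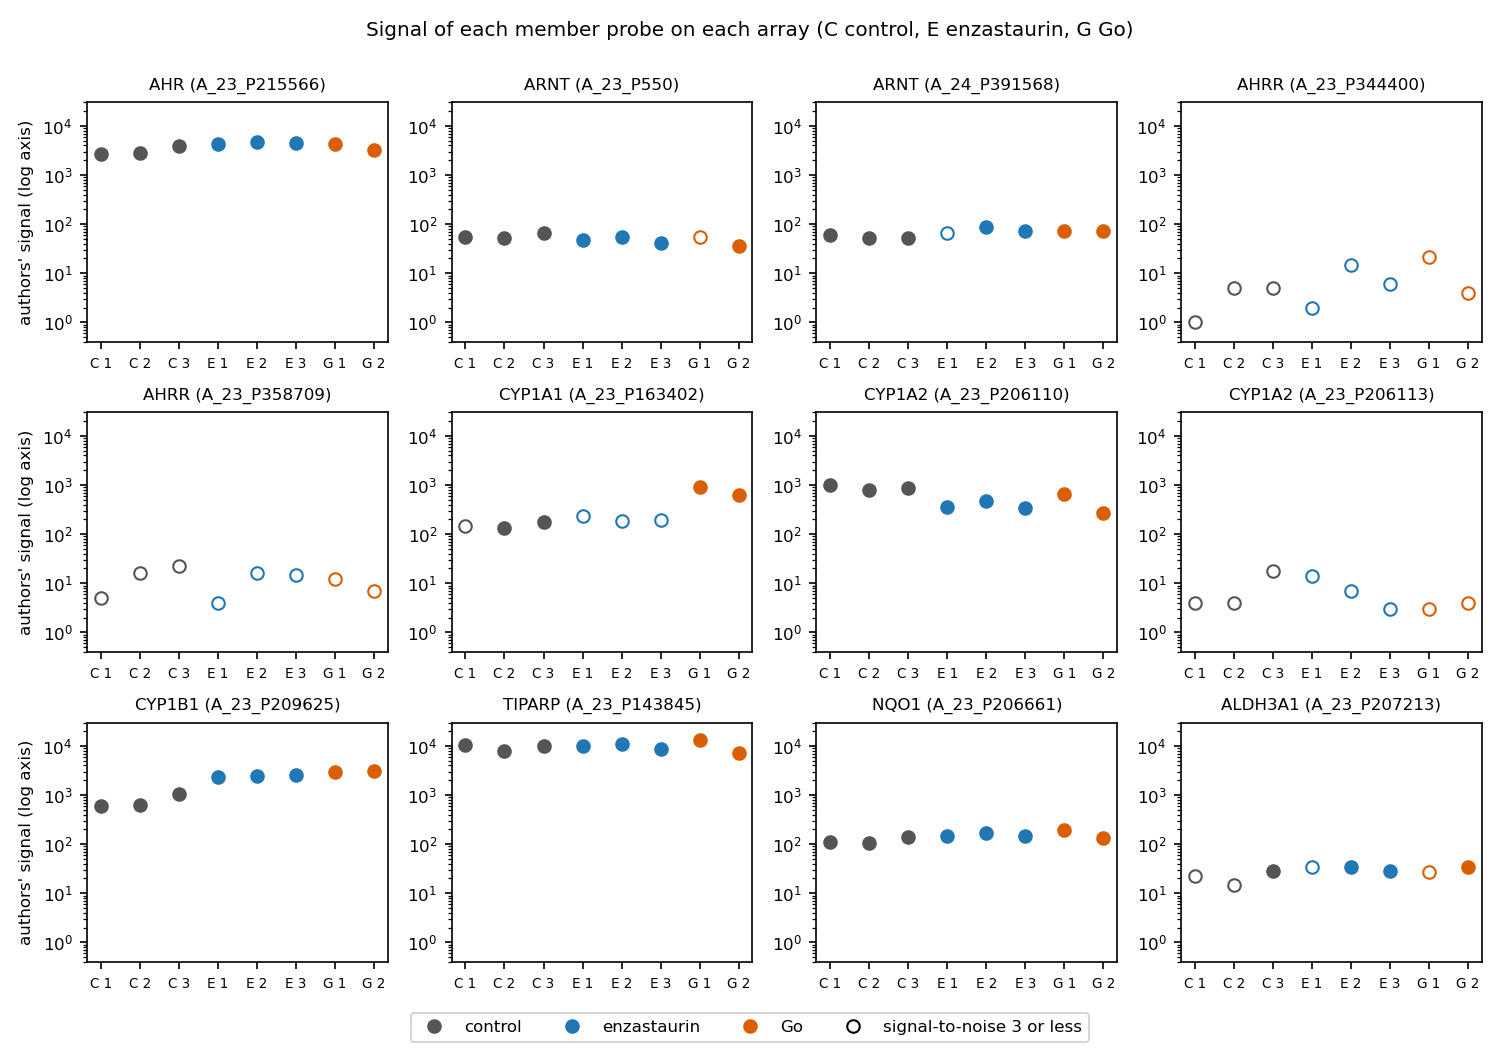
Signal of each member probe on each array (vertical axis: the authors' background-subtracted intensity in arbitrary units, logarithmic), with control, enzastaurin and Go arrays side by side. Open circles mark arrays where the probe was not above background. The CYP1A1 probe stands highest on both Go arrays, the CYP1B1 probe is lowest on the 3 control arrays, and both AHRR probes are open throughout.

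The receptor itself showed no difference past the test. AHR gave signals of 2704, 2855 and 3828 on the control arrays, 4363, 4727 and 4498 with enzastaurin, and 4279 and 3296 with Go. On this scale the enzastaurin arrays lay above all controls, but after normalisation the groups overlapped, at 11.71, 11.93 and 11.98 on the log2 scale in controls, 11.91, 11.82 and 12 with enzastaurin, and 11.96 and 11.73 with Go. The log2 difference of enzastaurin from control was 0.04 (95% interval -0.20 to 0.27, limma adjusted p = 0.786). With arrays scaled to their median instead, the same difference was 0.40 and passed the test (limma adjusted p = 0.0308), so this value turns on the scaling. Go differed from control by -0.02 (limma adjusted p = 0.88) and from enzastaurin by -0.06 (95% interval -0.32 to 0.20, limma adjusted p = 0.790).

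ARNT, the partner with which the receptor binds DNA, had 2 dim probes that did not move alike. Probe A_23_P550 gave signals of 55, 53 and 65 in controls, 47, 55 and 41 with enzastaurin, and 55 and 36 with Go. Its normalised values were lower in all treated arrays than in any control, by 0.20 log2 with Go (difference -0.20, 95% interval -0.39 to -0.01, limma adjusted p = 0.0949) and 0.18 with enzastaurin (difference -0.18, limma adjusted p = 0.0695), neither past the test. Both differences passed it with arrays scaled to the 75th percentile, at -0.32 (limma adjusted p = 0.0321) and -0.43 (limma adjusted p = 0.00229), and with the authors' value table, at -0.29 (limma adjusted p = 0.0348) and -0.30 (limma adjusted p = 0.00993). The other probe, A_24_P391568, gave 59, 52 and 53, then 67, 88 and 71, then 71 and 74, with log2 differences of 0.08 for Go (limma adjusted p = 0.552) and 0.03 for enzastaurin (limma adjusted p = 0.813) against control. The pair therefore gives no single direction for ARNT.

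AHRR, the repressor that competes with the receptor for ARNT, was not detected. Its 2 probes gave signals of 1 to 22 over the 8 arrays, and their highest signal-to-noise score was 1.78. No difference is given for it.

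CYP1A1, the P450 most often used to read out the receptor's activity, was higher with Go than in either other group. Its signals were 146, 133 and 174 in controls, 230, 188 and 192 with enzastaurin, and 924 and 624 with Go. Both Go arrays lay above the other 6, on this scale and after normalisation, where they stood at 9.74 and 9.44 log2 against 7.85 to 7.88 in controls and 7.73 to 8.04 with enzastaurin. Go exceeded control by 1.73 log2 (SE 0.119, 95% interval 1.45 to 2.0, limma adjusted p = 0.00253), which is 3.31-fold. It exceeded enzastaurin by 1.70 log2 (SE 0.119, 95% interval 1.43 to 1.98, limma adjusted p = 0.00202). This is 3.25-fold, but no enzastaurin array had the probe above background. Taking each dim array at the higher of its own value and the lowest value above background left the ratio unchanged. The 3.25-fold is therefore an estimate and not a lower bound. Enzastaurin against control differed by 0.03 log2 (95% interval -0.22 to 0.27, limma adjusted p = 0.854).

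The Go difference for CYP1A1 was seen in both position sets. Go array 1 was 1.88 log2 above the mean of the 3 controls that share its set, and Go array 2 was 1.55 log2 above the mean of the 3 enzastaurin arrays that share its own. The call held in 17 of 17 alternatives for Go against control (1.57 to 1.89 log2, adjusted p 0.000374 to 0.0284) and in 17 of 17 against enzastaurin (1.55 to 1.86 log2, adjusted p 0.000417 to 0.0165).

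The CYP1A1 spot lies near a bright one, which bears on how its detection reads. The foreground was 186, 167 and 209 in controls, 274, 247 and 244 with enzastaurin, and 921 and 652 with Go, over a local background median of 36 to 54 on all arrays. The standard deviation of the local background was 50, 27 and 34 in controls but 167, 92 and 91 with enzastaurin and 95 and 102 with Go. The signal-to-noise score was accordingly 2.48, 4.33 and 4.74 in controls, 1.05, 1.83 and 1.80 with enzastaurin, and 8.78 and 5.52 with Go, so that enzastaurin arrays missed the limit of 3 with a foreground above that of controls. The brightest spot within 2 rows and columns read 24415, 21615 and 29006 in controls, 43663, 50777 and 50540 with enzastaurin, and 40554 and 50381 with Go. It was thus as bright with enzastaurin, where CYP1A1 was low, as with Go, where CYP1A1 was high; its part in the CYP1A1 signal was not tested.

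**Figure D2:**
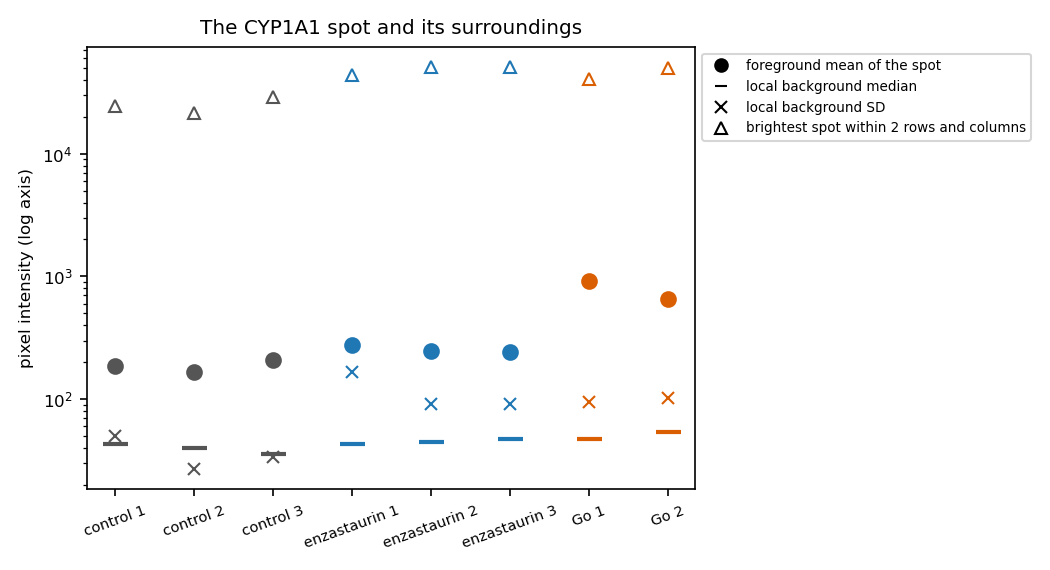
The CYP1A1 spot on each of the 8 arrays (vertical axis: pixel intensity, logarithmic): its foreground mean (dots), the median (bars) and SD (crosses) of its local background, and the brightest spot within 2 rows and columns (triangles). The foreground is 921 and 652 on the Go arrays and at most 274 elsewhere, while the bright neighbour is as high on the enzastaurin arrays as on the Go arrays.

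CYP1B1, the P450 of this family best known outside the liver, was higher with both inhibitors than in controls. Its signals were 588, 631 and 1039 in controls, 2311, 2486 and 2549 with enzastaurin, and 2897 and 3073 with Go. The 3 groups did not overlap, with controls lowest and Go highest, and after normalisation the order was the same: 9.59 to 10.08 log2, then 10.92 to 11.15, then 11.40 and 11.64. Go exceeded control by 1.68 log2 (SE 0.152, 95% interval 1.33 to 2.02, limma adjusted p = 0.00409), or 3.19-fold. Enzastaurin exceeded control by 1.17 log2 (SE 0.136, 95% interval 0.85 to 1.48, limma adjusted p = 0.000736), or 2.24-fold.

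Between the inhibitors, CYP1B1 did not pass the test, although both Go arrays lay above all 3 enzastaurin arrays. The difference was 0.51 log2 (SE 0.152, 95% interval 0.16 to 0.86, limma adjusted p = 0.104), and it passed in none of 18 alternatives (0.36 to 0.63 log2, adjusted p 0.0561 to 0.286). Within position sets, Go array 1 was 1.55 log2 above its controls and Go array 2 was 0.63 above its enzastaurin arrays. The Go call against control held in 18 of 18 alternatives (1.55 to 1.87 log2, adjusted p 0.000358 to 0.0303). The enzastaurin call held in 17 of 18 and was lost with position set as a block, at 0.92 log2 (limma adjusted p = 0.0939), a fit that reaches this difference only through the 2 Go arrays.

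CYP1A2, the P450 known mainly from liver, was lower with enzastaurin by the 1 probe that was above background. That probe, A_23_P206110, gave 1001, 807 and 858 in controls, 350, 468 and 347 with enzastaurin, and 667 and 270 with Go. All treated arrays lay below all controls, but the 2 Go arrays stood apart: Go array 1 lay between controls and enzastaurin, and Go array 2 was the lowest of the 8. Enzastaurin was 1.57 log2 below control (difference -1.57, SE 0.213, 95% interval -2.06 to -1.08, limma adjusted p = 0.00116), a ratio of 0.337. Go was 1.25 log2 below control (difference -1.25, SE 0.238, 95% interval -1.80 to -0.70, limma adjusted p = 0.0141), a ratio of 0.421. Go and enzastaurin differed by 0.32 log2 (95% interval -0.23 to 0.87, limma adjusted p = 0.455).

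For CYP1A2, a difference between the position sets and the spread between the 2 Go arrays cannot be told apart. Go array 1 was 0.84 log2 below the controls of its set (difference -0.84), and Go array 2 differed by -0.09 from the enzastaurin arrays of its own. With position set as a block, neither call remained, at -0.84 log2 for Go (limma adjusted p = 0.0543) and -0.75 log2 for enzastaurin (limma adjusted p = 0.146). The Go call was also lost without control array 2, at -1.17 log2 (limma adjusted p = 0.058), and without Go array 2, at -0.84 log2 (limma adjusted p = 0.0539). The second probe, A_23_P206113, gave signals of 3 to 18 and was above background on no array. On the control arrays it gave 4, 4 and 18, where the first probe gave 1001, 807 and 858. The 2 probes thus disagree on whether CYP1A2 RNA was detected. Whether A_23_P206110 reads CYP1A2 RNA was not tested, so the differences above are those of 1 probe.

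TIPARP, which encodes an ADP-ribosyltransferase that limits receptor activity, did not pass the test in any comparison. It gave 10256, 7924 and 10123 in controls, 10176, 10881 and 8857 with enzastaurin, and 13165 and 7088 with Go, so the 2 Go arrays were the highest and the lowest of the 8. After normalisation the enzastaurin arrays lay below all controls (difference -0.44, SE 0.182, 95% interval -0.86 to -0.02, limma adjusted p = 0.0722). Go differed from control by -0.24 (95% interval -0.70 to 0.23, limma adjusted p = 0.384) and from enzastaurin by 0.21 (95% interval -0.26 to 0.67, limma adjusted p = 0.580). Each Go value rests on which array is kept: without Go array 2 Go exceeded enzastaurin by 0.60 (limma adjusted p = 0.0158), and without Go array 1 it lay below control (difference -0.64, limma adjusted p = 0.00494). The enzastaurin difference passed without Go array 1 (limma adjusted p = 0.0027) or Go array 2 (limma adjusted p = 0.00274) and changed sign, to 0.37, with position set as a block (limma adjusted p = 0.174).

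NQO1, a quinone reductase, and ALDH3A1, an aldehyde dehydrogenase, are targets that the receptor shares with the oxidative stress factor NRF2, and neither changed past the test. NQO1 gave 111, 104 and 137 in controls, 147, 167 and 147 with enzastaurin, and 193 and 135 with Go. Its normalised values differed by 0.10 log2 for Go against control (limma adjusted p = 0.347), by -0.05 for enzastaurin against control (limma adjusted p = 0.601) and by 0.15 between the inhibitors (95% interval -0.04 to 0.33, limma adjusted p = 0.316). The highest NQO1 value, on Go array 1, came from a spot with a local background median of 117 against 31 to 36 on the other arrays. ALDH3A1 was near background, with signals of 22, 15 and 29, then 34, 35 and 29, then 27 and 35. Its log2 differences were 0.14 for each inhibitor against control (limma adjusted p = 0.246 for Go and 0.187 for enzastaurin) and 0.01 between them (limma adjusted p = 0.976).

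**Figure D3:**
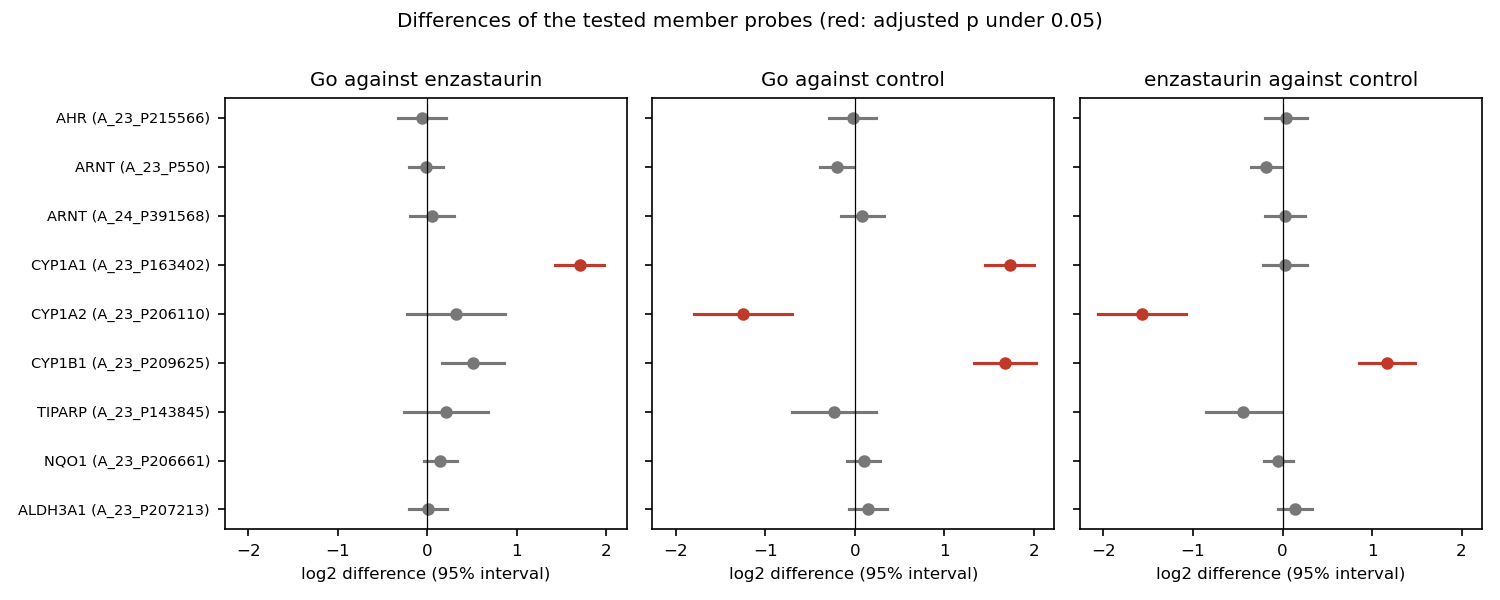
Log2 difference with its 95% interval for each of the 9 tested member probes (horizontal axis: difference in normalised log2 intensity) in the 3 comparisons, with probes past an adjusted p of 0.05 in red. CYP1A1 is the red point with Go against enzastaurin, CYP1A1, CYP1B1 and CYP1A2 are red with Go against control, and CYP1B1 and CYP1A2 with enzastaurin against control.

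The members' counts have to be read against how many probes passed in all. Between Go and enzastaurin, 1 of 9 tested member probes passed, beside 4.37% of the 24771 probes tested (2.32% higher, 2.05% lower). For Go against control 3 of 9 passed, 2 higher and 1 lower, beside 29.7% of all probes (13.2% higher, 16.5% lower). For enzastaurin against control 2 of 9 passed, 1 higher and 1 lower, beside 52.6% of all probes (21.9% higher, 30.7% lower). The groups did not overlap for 3, 4 and 5 of the 9 probes in the same order, beside 46%, 56.7% and 68% of all probes. All arrays of the first group lay above the second for 24.2%, 22.7% and 27.7% of all probes, and below it for 21.8%, 34% and 40.3%. The members' shares are thus near or below the background in both comparisons with control, and the tested probes are those that passed the filter on dim signal, not all members. The comparisons share arrays, so the same array values enter more than 1 of them.

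The counts over all probes were themselves unsteady. Between the inhibitors 1083 probes passed, but 365 without control array 2, 1681 without control array 3, 180, 154 and 218 without enzastaurin array 1, 2 or 3, and 2585 without Go array 2. For Go against control 7363 passed, but 3113 without control array 1, 906 without control array 2, 1359 without Go array 2, 4069, 4043 and 4381 without enzastaurin array 1, 2 or 3, and 1383 with position set as a block. For enzastaurin against control 13029 passed, and 866 with position set as a block. The share of calls that were higher was 53%, 44.4% and 41.6% in the 3 comparisons, and 30.5%, 76.3% and 67.1% with arrays scaled to their median, with 31.2% for the last at the 75th percentile.

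Genes around the receptor were taken from 6 lists, each gene by its brightest probe, and their counts are descriptions beside the same background. That background was 4.37% of all probes between the inhibitors, 29.7% for Go against control and 52.6% for enzastaurin against control. The 5 genes of the receptor's cytosolic complex gave 0 calls between the inhibitors (median log2 difference -0.05). Against control, Go gave 1 higher and 1 lower (median -0.35) and enzastaurin 2 higher and 2 lower (median 0.27), where the medians of all probes were 0.01, -0.07 and -0.07. SRC, the tyrosine kinase released when ligand binds, fell by 0.63 with enzastaurin. It fell by 0.35 with Go (limma adjusted p = 0.0178), a call lost in 4 of 18 alternatives: without control array 2 (adjusted p 0.0661) or Go array 2 (0.0853), with arrays scaled to their median (0.154) and with position set as a block (0.0842). HSP90AB1, a subunit of the HSP90 chaperone, was higher by 0.53 with enzastaurin at its brightest probe (limma adjusted p = 0.00136). Its other probes passed in opposite directions, at 1.69 (limma adjusted p = 0.00274) and -0.74 (limma adjusted p = 0.00191), so HSP90AB1 has no single direction. PTGES3, the p23 cochaperone, read 2238 on Go array 1 against 9339 to 20878 on the other 7 arrays and passed in no comparison; it is named here for that value, after it was seen.

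Of the other bHLH-PAS proteins, the family of AHR and ARNT, 11 were tested. They gave 1 higher and 1 lower call between the inhibitors, and 1 higher and 3 lower between Go and control. Enzastaurin against control gave 5 higher and 4 lower. The medians were -0.15, 0.18 and 0.02. In the same order, 4.37%, 29.7% and 52.6% of all probes passed. EPAS1, a hypoxia factor that also pairs with ARNT, was lower with Go at its brightest probe. Its signals were 2894, 2695 and 3664 in controls, 3659, 4028 and 3554 with enzastaurin, and 2318 and 2360 with Go, so both Go arrays were lower than the other 6. Go against control fell by 0.71 log2 (limma adjusted p = 0.00497), called in 18 of 18 alternatives, while its second probe differed by -0.14 (limma adjusted p = 0.195). At the first probe enzastaurin was also lower than control after normalisation (difference -0.26, limma adjusted p = 0.0196). HIF1A, the other main hypoxia factor, rose by 0.87 with enzastaurin (limma adjusted p = 0.00248), and ARNT2, the relative of ARNT, rose by 0.67 (limma adjusted p = 0.00152).

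The 10 tested coactivators and corepressors gave 0 calls between the inhibitors (median -0.04). Go against control gave 2 higher and 1 lower (median -0.02), and enzastaurin against control 2 higher and 0 lower (median -0.09). In the same order, 4.37%, 29.7% and 52.6% of all probes passed. The 2 higher with enzastaurin at their brightest probes were CREBBP, a histone acetyltransferase, by 0.66 log2 (limma adjusted p = 0.00126; its second probe differed by -0.06), and RB1, the retinoblastoma protein, by 1.0 at its brightest probe (limma adjusted p = 0.00117). The second RB1 probe passed in the opposite direction, at -0.33 (limma adjusted p = 0.02), so RB1 has no single direction.

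The 15 tested genes reported elsewhere as receptor targets did not all move one way. Go against enzastaurin gave 2 higher, 2 lower and 11 not passed, beside 2.32% higher and 2.05% lower of all probes. Go against control gave 6, 2 and 7, beside 13.2% and 16.5%, so the share higher was above that of all probes. Enzastaurin against control gave 5, 4 and 6, beside 21.9% and 30.7%. The medians were 0.20, 0.35 and -0.17, where those of all probes were 0.01, -0.07 and -0.07. The higher calls for Go against control included HES1, CDKN1B, STC2 and EREG, lost in 3, 1, 5 and 6 of 18 alternatives. At the second probes, CDKN1B passed lower (difference -0.28, limma adjusted p = 0.0413) and STC2 passed higher (1.33, limma adjusted p = 0.0103). Those of HES1 (0.12, limma adjusted p = 0.485) and EREG (0.17, limma adjusted p = 0.147) did not pass. ALDH1A3, which makes retinoic acid, gave 685, 501 and 682 in controls, 788, 841 and 726 with enzastaurin, and 1034 and 1234 with Go. Both Go arrays were above all others, and Go exceeded enzastaurin by 0.69 log2 (SE 0.132, limma adjusted p = 0.032), a call lost in 6 of 18 alternatives: without any 1 enzastaurin array (adjusted p 0.115, 0.132 and 0.109) or control array 2 (0.0706), with arrays scaled to their median (0.0591) and with the replicate number as a block (0.109). STC2, a secreted glycoprotein, was higher with Go than enzastaurin by 0.70 (SE 0.131, limma adjusted p = 0.0291), a call lost in 7 of 18 alternatives: without control array 2 (0.0683), enzastaurin array 2 (0.113) or 3 (0.109) or Go array 1 (0.0672), with arrays scaled to their median (0.0791), and with position set (0.0682) or replicate number (0.0719) as a block. Its second probe differed by 0.04. VAV3, a guanine nucleotide exchange factor, rose by 1.0 with enzastaurin against control at its brightest probe (limma adjusted p = 0.000549), while its second probe differed by 0.02 (limma adjusted p = 0.818). The 2 lower calls for Go against enzastaurin were VAV3 and XDH. VAV3 differed by -0.65 (limma adjusted p = 0.0238), a call lost in 6 of 18 alternatives, and by -0.11 at its second probe. XDH differed by -0.74 (limma adjusted p = 0.0463), a call lost in 12 of 18.

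The list for tryptophan breakdown, a source of natural ligands, had 5 tested members: KYNU, KMO, AFMID, IL4I1 and CCBL1. IDO1, IDO2 and TDO2 were also listed, but none of them was tested. No value here measures the supply of ligand. Go against enzastaurin gave 1 higher and 2 lower, Go against control 0 and 1, and enzastaurin against control 1 and 1. The medians were 0.01, -0.05 and 0.02, and 4.37%, 29.7% and 52.6% of all probes passed. KMO, kynurenine monooxygenase, gave 484, 393 and 482 in controls, 284, 308 and 276 with enzastaurin, and 625 and 393 with Go. The enzastaurin arrays lay below all others, and KMO fell by 0.97 log2 with enzastaurin against control (limma adjusted p = 0.000818), with a difference of -0.23 at its second probe (limma adjusted p = 0.0608). IL4I1, an amino acid oxidase that makes receptor ligands from tryptophan, gave 156, 145 and 168, then 371, 368 and 332, then 208 and 169, and rose by 0.55 with enzastaurin (limma adjusted p = 0.00166).

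NRF2 and its other targets had 18 tested members, with 0 higher and 2 lower for Go against enzastaurin. There were 2 and 2 between Go and control, and 5 and 4 between enzastaurin and control. The medians were 0.06, -0.02 and -0.12, and 4.37%, 29.7% and 52.6% of all probes passed. AKR1C1, an aldo-keto reductase, gave 420, 379 and 541 in controls, 1199, 1722 and 1128 with enzastaurin, and 600 and 633 with Go. It rose by 1.01 log2 with enzastaurin (limma adjusted p = 0.000647) and was lower with Go than with enzastaurin by 0.82 (difference -0.82, SE 0.123, limma adjusted p = 0.015), a call lost in 2 of 18 alternatives, without enzastaurin array 1 (adjusted p 0.06) or 2 (0.053). Its 2 other probes differed by 1.62 and 0.14 with enzastaurin against control, and near-identical AKR1C genes make the assignment of this signal uncertain. TXNRD1, thioredoxin reductase, moved the other way, and fell by 0.82 with enzastaurin (limma adjusted p = 0.00189). Each enzastaurin against control call given here for the brightest probe of a list gene was lost with position set as a block, except that of EPAS1, which was not refitted.

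**Figure D4:**
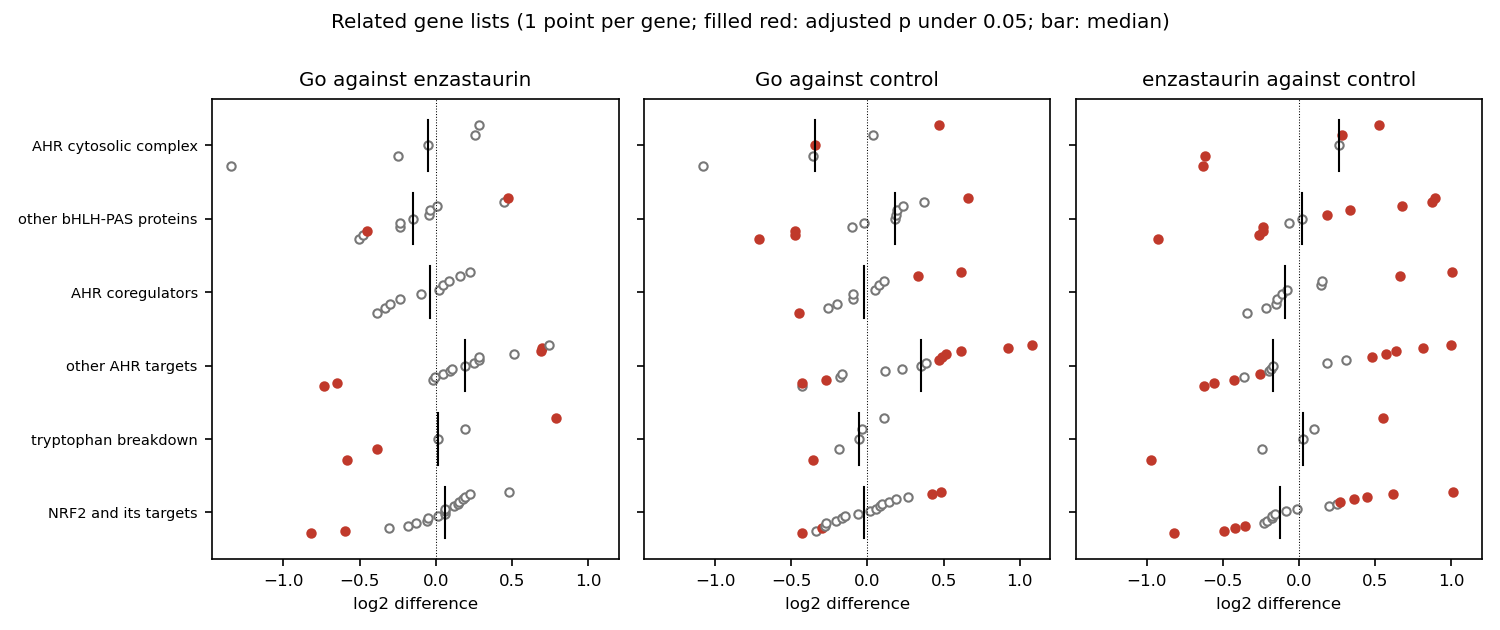
Log2 difference of each tested gene in the 6 lists (horizontal axis: difference in normalised log2 intensity; 1 point a gene; vertical bar: the list's median) in the 3 comparisons, with genes past an adjusted p of 0.05 filled in red. Calls lie on both sides of 0 in most lists, and most are in the comparison of enzastaurin with control, where 52.6% of all probes passed.

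The genes whose pattern over the 8 arrays was most like that of CYP1A1 were, among 17656 named probes, C8orf4 (Pearson r 0.9896), TOMM40L (0.9885), DHRS2 (0.9823), ASNS (0.9795) and PTPRH (0.9792). DHRS2, a short-chain reductase, stood at 7.30 to 7.34 log2 in controls, 7.36 to 7.42 with enzastaurin, and 8.83 and 9.01 with Go. ASNS, asparagine synthetase, was 0.75 log2 higher with Go than with enzastaurin and 0.67 higher than in controls. For CYP1B1 they were MT1G (0.9957), CAST (0.9918), UNC5B (0.9917), HIST1H2BH (0.9913) and HERC5 (0.9891). MT1G, a metallothionein, exceeded control by 1.55 log2 with Go and 1.06 with enzastaurin, and UNC5B, a netrin receptor, by 1.80 and 1.42. These correlations are over 8 arrays in 3 groups, so any probe with the same group means scores high, and they are given as a description.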

How the data were processed

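The labels give 3 groups and replicate numbers for 8 single-colour arrays of Cy3-labelled RNA. The scanner tables name their single channel by a number and not by this dye, and which dye was read was not checked. The deposited scanner tables hold, per the file headers, pixel foreground and background intensity per spot with no normalisation, a signal-to-noise score, and saturated pixels as a percent. The authors' value table holds, by comparison with these, background-subtracted intensity with a floor of 0.5, not normalised (medians 38 to 56). The annotation ran end for end against the spots: the rank correlation with the value table was 0.0072 to 0.013 as deposited and 0.9904 to 0.9937 once turned, with 33.4% to 37.8% of values then equal exactly, and the SD between replicate spots of 264 probes fell from 3.40 to 3.78 log2 to 0.448 to 0.520. The turned annotation was used.

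Background correction of the foreground mean by the background median used normexp with an offset of 50, followed by quantile normalisation between arrays, in limma 3.58.1 (R 4.3.3). Probes with a score above 3 on at least 2 arrays were tested (24771 of 41000) in 1 fit with the 3 groups. The fit had 5 residual and 2.97 prior degrees of freedom, with Benjamini-Hochberg adjustment over all tested probes and a threshold of 0.05. The fit was also run on simulated data with independent noise and no position-set effect, so that run does not bear on position set. Of 153 negative control spots, no array had more than 0.654% with a score above 3. The small number of arrays limits the precision. Alternatives were other scalings, background corrections and filters, the value table, position set or replicate number as a block, and leaving out each array. Named were all member probes, up to 4 called genes per list and comparison by smallest p whose groups do not overlap (examples in the text; 1 such gene is not reported here), and the 5 genes most like CYP1A1 and CYP1B1. Members, lists and rules were chosen with earlier results of these data known, so they lend no independent support. Gene names are those of the array files, some of them old, and the RefSeq table was used for promoter windows only.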

Additional observations from a re-analysis of the deposited data

How the results depend on the processing

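Over the 27 member results and all alternatives, 477 values were computed, of which 461 kept their side of the threshold, 5 lost it, 11 gained it and 0 reversed a call; 41 values that passed in neither fit turned sign. CYP1A1 had no value where a probe had to be above background on at least 5 arrays. The count of probes that passed moved most. With position set as a block it was 1383 for Go against control and 866 for enzastaurin against control, and with arrays scaled to their median it was 4261 for Go against control. Leaving out 1 array at a time gave 154 to 2585 probes between the inhibitors, 906 to 10140 for Go against control and 9447 to 14303 for enzastaurin against control; a group cut to 1 array is assumed to vary like the others. The replicate numbers did not pair the arrays (correlation of deviations -0.148 to 0.16 between same-numbered arrays). With the replicate number as a block, 260 probes passed between the inhibitors, 7869 for Go against control and 12494 for enzastaurin against control, and of the members TIPARP passed for enzastaurin against control (difference -0.44, limma adjusted p = 0.0451). Scaling to the 75th percentile moved the median of all probes for enzastaurin against control from -0.07 to -0.17, and scaling to the median moved it to 0.10. ARNT probe A_23_P550 also passed for enzastaurin without background correction, at -0.26 (limma adjusted p = 0.0286). The cause of these changes was not tested. Signal over background limits AHRR, ARNT, CYP1A1 and ALDH3A1, and 2 Go arrays limit every value for Go.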
